A study of Mus musculus with 2 samples.

Results

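Nppa, Nppb, Ankrd1, Acta1, Xirp2 and Xirp1 are heart muscle genes known for their response to load and injury, and they were chosen here by name, as natriuretic peptides and genes of the hypertrophy response, without use of their values. All 6 are protein-coding and were listed in both libraries, among 25235 genes listed in at least 1 of them. The libraries were made from nuclei of 1 adult heart (9 weeks) and 1 aged heart (78 weeks) by single-nucleus RNA-seq, in a study of how X chromosome inactivation changes with age. The name under which the aged values were deposited carries another number of weeks, and the age of the labels is used here. Both hearts came from female F1 hybrids of a C57BL/6J (BL6) mother and a CAST/EiJ (CAST) father. The breed field of the labels names a mother heterozygous for an Xist mutation, whereas the genotype field gives C57BL/6JxCAST/EiJ, and the study's methods call these females wild type. The hearts were frozen, and nuclei stained with DRAQ7 were sorted without regard to cell type. The values pool all cell types but only of nuclei with an active BL6 X chromosome, so that a smaller number of cells of a type and less RNA per cell cannot be told apart.

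A read was counted where it overlapped a single-nucleotide polymorphism (SNP) that separates BL6 from CAST. The adult library held 9747535 such reads and the aged library 5805807, and 1 read corresponds to 0.103 RPM and 0.172 RPM, respectively, where RPM are reads per 1000000 SNP-overlapping reads over all genes. Each age has 1 library and no replicate, so no test between the ages was possible. The 95% intervals below reflect the number of reads alone. Reads may share a molecule, and the variation between animals was not measured. A level ratio is the aged RPM divided by the adult RPM. It was called for genes with 40 or more reads over both libraries when it was at least 1.5 or at most 0.667. The allelic ratio is the share of BL6 reads and was given where a library held 20 reads or more. The 12 cardiomyocyte markers, among them Ttn, Myh6, Ryr2 and Tnnt2, were all detected and summed to 44054 RPM at 9 weeks and 36432 RPM at 78 weeks, a ratio of 0.827. Of these, Ttn, Rbm20, Fgf13 and Ctnna3 were called lower and none was called higher. The other 8 had ratios from 0.976 (Tnnt2) to 1.39 (Actn2), and the median over the 12 was 1.06. Summed markers of fibroblasts, endothelial cells, pericytes, smooth muscle and macrophages had ratios of 1.35, 1.45, 1.86, 2.53 and 1.55, and those of lymphocytes, mesothelium and adipocytes 0.600, 0.245 and 0.892.

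Nppa and Nppb encode the precursors of atrial and B-type natriuretic peptide, hormones that heart muscle releases when its wall is stretched and that promote salt excretion and widen vessels. In rodents Nppa is made in the atria and ventricles of the embryonic heart and is later largely restricted to the atria. Ankrd1 encodes CARP, an ankyrin repeat protein that binds the N2A region of titin and also enters the nucleus. Acta1 encodes skeletal muscle actin, which the fetal heart expresses beside cardiac actin, and its return in the stressed heart is part of the fetal gene programme. Xirp1 and Xirp2 encode Xin and myomaxin, actin-binding repeat proteins of the intercalated disc, where heart muscle cells are joined. Nppa, Nppb, Ankrd1 and Acta1 are widely used as markers of cardiac hypertrophy and failure.

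Their upstream sequences are shown because short binding motifs in them are well known for several of these genes and give the regulatory context of the levels below. RefSeq windows (GRCm38.p6) were matched for 5 of the 6 genes, all but Xirp1. For Nppa at chr4:148000472-148000721 (plus strand), Acta1 at chr8:123894776-123895025 (minus strand) and Xirp2 at chr2:67445752-67446001 (plus strand), the 250 bases before the start site are printed 5′ to 3′. For Nppb at chr4:147985792-147985821 (plus strand) and Ankrd1 at chr19:36120049-36120078 (minus strand), a stretch of 30 bases with a motif is printed, because annotated exons of these genes lie in their windows. The Nppb stretch lies within the Nppb locus given below, so the start site of its window is inside that locus. Capitals mark the motifs that were found.
Nppa: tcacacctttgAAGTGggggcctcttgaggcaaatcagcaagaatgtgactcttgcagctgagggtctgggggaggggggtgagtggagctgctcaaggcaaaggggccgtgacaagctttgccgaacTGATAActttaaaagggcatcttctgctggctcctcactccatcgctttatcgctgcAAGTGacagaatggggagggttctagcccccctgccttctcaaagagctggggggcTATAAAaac
Nppb: gcaGGAATGcagcTGATAAatcagAGATAA
Ankrd1: ctgagcggtgtggtcactgccaaaGGAATG
Acta1: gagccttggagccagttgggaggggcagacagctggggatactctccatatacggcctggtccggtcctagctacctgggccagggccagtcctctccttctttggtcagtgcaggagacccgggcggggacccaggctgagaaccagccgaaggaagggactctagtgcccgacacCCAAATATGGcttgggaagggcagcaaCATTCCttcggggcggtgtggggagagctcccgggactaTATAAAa
Xirp2: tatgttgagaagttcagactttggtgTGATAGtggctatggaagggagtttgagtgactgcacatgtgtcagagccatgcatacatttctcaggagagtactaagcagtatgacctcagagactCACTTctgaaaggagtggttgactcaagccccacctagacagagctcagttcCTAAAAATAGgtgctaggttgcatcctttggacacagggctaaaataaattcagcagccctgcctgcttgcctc

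The motifs searched on both strands of the 250 bases were the CArG box, MCAT (CATTCC), the MEF2 site, the NKE (AAGTG), GATA (the word GATA after A or T and before A or G) and the TATA box (TATAAA). No matches overlapped in the printed sequences. The Acta1 window held a CArG box, the site of serum response factor, from base -73 to -64 and an MCAT motif, the site of TEAD factors, from -46 to -41. Over 32851 promoter windows of the same length, 1.47% held a CArG box and 12.6% an MCAT motif. In the Xirp2 window, a MEF2 site lay from -74 to -65, which 0.508% of all windows held. Nppa had 2 NKE motifs, at -239 and -65, and a GATA motif at -122, and 40.7% and 26.5% of all windows held such letters. For Nppb, an MCAT motif at -105 was followed by GATA motifs at -95 and -84. Ankrd1 had MCAT motifs at -210 and -123 and a GATA motif at -47, and Xirp2 an NKE motif at -126 and a GATA motif at -224. The letters TATAAA lay from -31 to -26 for Nppb, from -9 to -4 for Nppa and from -7 to -2 for Acta1. They were found in 12.4% of all windows, and positions count from the start site of each window. These matches describe letters only, and a missing match says nothing of a factor.

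Levels were compared between genes per kb of exon. The study names a 3′ kit for these libraries, in which reads need not grow with the length of the exons. Without this division Xirp2 was highest, with 324 RPM at 9 weeks and 394 RPM at 78 weeks. Nppa then had 81.7 and 66.8 RPM, so the order below depends on the division. In the adult library Nppa was highest with 94.4 RPM per kb of exon (95% interval 88.0 to 101), followed by Ankrd1 with 28.1 (26.2 to 30.1), Xirp2 with 27.1 (26.1 to 28.0), Xirp1 with 1.63 (1.32 to 2.002), Nppb with 0.394 (0.0813 to 1.15) and Acta1 with 0.134 (0.0162 to 0.483). In the aged library the order was Nppa with 77.3 RPM per kb of exon (69.8 to 85.3), Xirp2 with 32.9 (31.6 to 34.3), Ankrd1 with 29.0 (26.5 to 31.7), Nppb with 4.85 (3.04 to 7.35), Xirp1 with 3.92 (3.28 to 4.65) and Acta1 with 0.561 (0.182 to 1.31). The neighbours Ankrd1 and Xirp2 had overlapping intervals in both libraries, as had Nppb and Acta1 in the adult and Nppb and Xirp1 in the aged library. Reads in introns and the number of SNPs of a gene also enter these levels, and the SNPs per gene were not analysed here. The values of Xirp2 include reads that may belong to the nested antisense gene Gm13601 described below. Without the reads listed for it, Xirp2 had 16.4 RPM per kb of exon (15.7 to 17.2) at 9 weeks and 22.7 (21.6 to 23.8) at 78 weeks, below Ankrd1 in both libraries and with intervals apart from it.

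**Figure D1:**
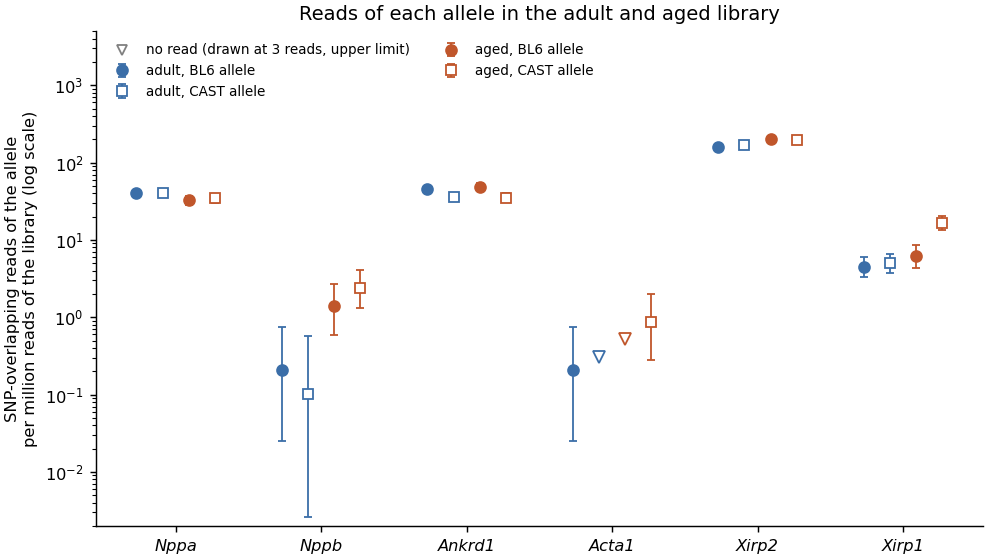
Reads of the BL6 (filled circles) and CAST (open squares) allele of each gene in RPM (log scale), in the adult (blue) and aged (orange) library, with exact Poisson 95% intervals; open triangles stand for no read and are drawn at the level of 3 reads. The adult and aged intervals are apart for the CAST alleles of Nppb and Xirp1 (5.03 RPM adult, 16.7 RPM aged for Xirp1) and for both alleles of Xirp2, and they overlap for the BL6 alleles of Nppb and Xirp1 and for both alleles of Nppa and Ankrd1.

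Of the 4 genes with 40 or more reads over both libraries (Nppa, Ankrd1, Xirp2 and Xirp1), Xirp1 was called higher in the aged library and none was called lower. Over all 13895 genes tested in this way, 27.1% were called higher and 15.1% lower. The median level ratio was 1.13 over all genes tested, a log2 shift of 0.18, and 1.12 over these 4 genes. Nppb and Acta1 did not reach 40 reads. Level ratios differed with the length of the locus, and short loci had higher ratios over all genes, with a median of 1.37 for loci under 5 kb and 0.938 for loci of 200 kb or more.

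**Figure D2:**
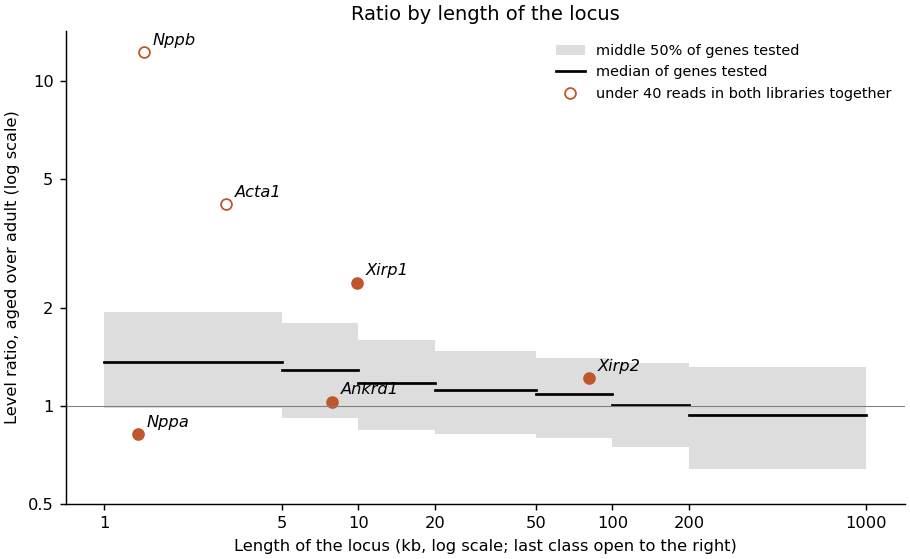
Aged to adult level ratio (log scale) against the length of the locus (kb, log scale); black lines are the medians and grey boxes the middle 50% of all genes tested in a length class, and open circles have under 40 reads over both libraries. Nppa (0.818) lay below the box of its class, Xirp1 (2.40), Acta1 (4.20) and Nppb (12.3) above theirs, while Ankrd1 and Xirp2 lay within.

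Beside the scale of all reads, the ratios were taken relative to the median gene, to the summed cardiomyocyte markers and to loci of similar length, that is, divided by the ratio of these. The divisor for the median gene was 1.15, the median ratio over all genes with 100 or more reads in each library. The divisor for loci of similar length was the median ratio of the genes of the same length class with 100 or more reads in each library. It was 1.54 over 188 genes under 5 kb, 1.35 over 373 genes from 5 to 10 kb and 1.12 over 1597 genes from 50 to 100 kb, and so differs from the medians over all genes tested.

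**Figure D3:**
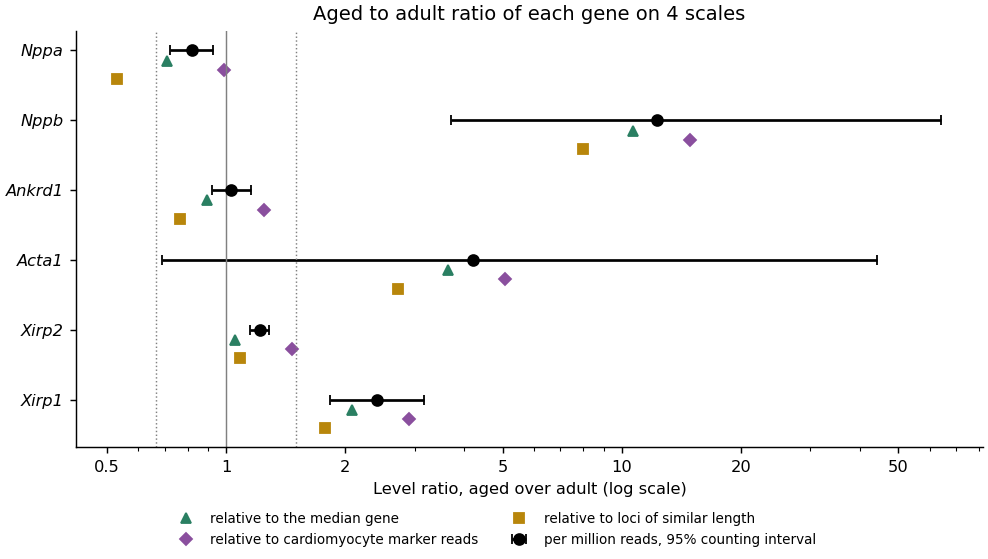
Aged to adult level ratio (log scale) of each gene in RPM, with its 95% counting interval (black), and on 3 other scales (coloured); dotted lines mark the 1.5-fold rule. Xirp1 lay above 1.5 on all 4 scales, from 1.78 to 2.90, whereas Ankrd1 moved from 0.763 to 1.25.

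Nppa (RefSeq gene 230899, GRCm38 chr4:148000722-148002074, plus strand) spans 1.353 kb. It was covered by 796 adult reads, 396 of BL6 and 400 of CAST, and 388 aged reads, 188 of BL6 and 200 of CAST. Its level was 81.7 RPM (76.1 to 87.5) at 9 weeks and 66.8 RPM (60.3 to 73.8) at 78 weeks. The aged level was thus lower, with a ratio of 0.818 (0.723 to 0.925), and 24.9% of all genes tested had a lower ratio. Relative to loci of similar length the ratio was 0.532, past the lower threshold, and relative to the cardiomyocyte markers it was 0.990. With Ttn and Myh6 left out of these markers it was 0.908. The level ratio was 0.797 (0.666 to 0.951) for BL6 and 0.839 (0.705 to 0.997) for CAST, with overlapping intervals. Its allelic ratio was 0.497 (0.462 to 0.533) at 9 weeks and 0.485 (0.434 to 0.536) at 78 weeks, a change (adult minus aged) of 0.0130 (-0.0476 to 0.0732).

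Because Nppa is an atrial gene in the adult, the atrial markers were read beside it. All 7 were detected in both libraries and summed to 3414 RPM at 9 weeks and 615 RPM at 78 weeks. This sum was made mostly of Kcnj3, a potassium channel subunit, which had 31650 adult and 2616 aged reads. Without Kcnj3 the other 6 summed to 167 and 164 RPM, a ratio of 0.984. Of these 6, Myl7, the atrial regulatory light chain, had 38 adult and 10 aged reads, Sln, an inhibitor of the calcium pump, had 183 and 72, and Bmp10, an atrial growth factor, had 29 and 1. Myl4, an atrial light chain, had 895 and 471 reads and a ratio of 0.884, Dkk3 had 416 and 351 and a ratio of 1.42, and Stard10 had 68 and 50 and a ratio of 1.23. Of the 6 with enough reads, 3 (Kcnj3, Myl7 and Sln) were called lower, beside 15.1% of all genes tested, and none was called higher. The 4 ventricular markers, Myl2, Myl3, Irx4 and Lbh, summed to 444 and 555 RPM. Their part in the level of Nppa was not tested.

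Nppb (gene 18158, chr4:147985773-147987205, plus strand) lies 13.516 kb before Nppa. The adult library held 3 of its reads, 2 of BL6 and 1 of CAST, and the aged library held 22, 8 of BL6 and 14 of CAST. This is a level of 0.308 RPM (0.0635 to 0.899) at 9 weeks and 3.79 RPM (2.37 to 5.74) at 78 weeks, and these intervals do not overlap. The level ratio was 12.3 with an interval from 3.70 to 64.3, so that its lower end was above the threshold of 1.5 but its size was poorly determined. Relative to loci of similar length the ratio was 7.997. Reads of both alleles were at a higher RPM in the aged library, with overlapping intervals for BL6, and the aged allelic ratio was 0.364 (0.172 to 0.593). Within the same library, Nppb made up 0.375% (0.0775 to 1.09) of the 799 adult reads of both natriuretic peptide genes and 5.37% (3.39 to 8.01) of the 410 aged reads. This share does not depend on the scale of the library. Among the nearest loci, Clcn6, a chloride transporter gene 2.184 kb after Nppa, had 236 adult and 163 aged reads, a ratio of 1.16 (0.944 to 1.42) and allelic ratios of 0.614 and 0.607. 2510039O18Rik, 38.456 kb before Nppb, had 58 and 46 reads, a ratio of 1.33 (0.884 to 1.995) and allelic ratios of 0.276 and 0.391.

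Of the other genes of the natriuretic peptide pathway, 13 of 14 were listed, 12 had enough reads, and 2 were called higher and 2 lower in the aged library. This is 16.7% in each direction, beside 27.1% of all genes tested called higher and 15.1% lower. The median ratio of the 12 genes was 1.00. Npr1, the guanylyl cyclase receptor of both peptides, had 88 adult and 83 aged reads and a ratio of 1.58 (1.16 to 2.16). Npr2, the receptor of C-type natriuretic peptide, had 141 and 62 reads and a ratio of 0.738 (0.539 to 1.00). Npr3, which clears the peptides, had 1817 and 601 reads and a ratio of 0.555 (0.506 to 0.609). The peptide-degrading protease gene Mme was also lower, with 647 and 178 reads and a ratio of 0.462 (0.389 to 0.546). Of the proteases that cut the precursors, Corin had 9999 and 5661 reads and a ratio of 0.951 (0.920 to 0.982), and Furin had 328 and 250 reads and a ratio of 1.28 (1.08 to 1.51). Prkg2, a cGMP-dependent kinase, had 37 and 87 reads and the highest ratio of the list, 3.95 (2.66 to 5.97). Nppc, which encodes C-type natriuretic peptide, was not listed in either library.

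Ankrd1 (gene 107765, chr19:36111965-36119844, minus strand) spans 7.88 kb. It had 791 adult reads, 441 of BL6 and 350 of CAST, and 486 aged reads, 281 of BL6 and 205 of CAST. Its level was 81.1 RPM (75.6 to 87.0) at 9 weeks and 83.7 RPM (76.4 to 91.5) at 78 weeks. These intervals overlap, and the ratio of 1.03 (0.919 to 1.16) includes 1. The side of 1 on which it fell changed with the scale, from 0.763 relative to loci of similar length and 0.894 relative to the median gene to 1.25 relative to the cardiomyocyte markers. Over all genes tested, 58.5% had a higher ratio than Ankrd1. The BL6 allele had the larger share of the reads in both libraries, with an allelic ratio of 0.558 (0.522 to 0.592) at 9 weeks and 0.578 (0.533 to 0.623) at 78 weeks. Its change was -0.0207 (-0.0761 to 0.0354), and the level ratios were 1.07 (0.918 to 1.25) for BL6 and 0.983 (0.824 to 1.17) for CAST. On the near side, at 7.191 kb, Rpp30 had 158 and 77 reads and a ratio of 0.818 (0.615 to 1.08). On the other, at 64.716 kb, the predicted gene Gm32081 had 69 adult reads, all of BL6, and 1 aged read.

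Among the partners of CARP, 10 of 12 genes had enough reads, of which 3 were called higher and 3 lower, with a median ratio of 0.996. These are 30% in each direction, beside 27.1% of all genes tested called higher and 15.1% lower. Ankrd23, a related muscle ankyrin repeat protein that also binds titin, had 226 adult and 370 aged reads and a ratio of 2.75 (2.32 to 3.26), unlike Ankrd1. Ankrd2, another protein of this family, had 1 and 8 reads, with a ratio of 13.4 (1.80 to 596). Ttn, the gene of titin itself, had a level of 11849 RPM at 9 weeks and 6872 RPM at 78 weeks and a ratio of 0.580 (0.573 to 0.587). Palld, an actin-binding protein of the Z disc, had a ratio of 0.447 (0.436 to 0.458). Ybx1, a nucleic acid binding protein that CARP interacts with, had 505 and 511 reads and a ratio of 1.70 (1.499 to 1.93).

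Acta1 (gene 11459, chr8:123891758-123894775, minus strand) was close to the detection limit. The adult library held 2 reads, both of BL6, and the aged library 5, all of CAST. This gives 0.205 RPM (0.0248 to 0.741) at 9 weeks and 0.861 RPM (0.280 to 2.01) at 78 weeks, with overlapping intervals. The ratio was 4.20 with an interval from 0.687 to 44.1, so a difference was not detectable at this depth. No allelic ratio was formed. For the allele without reads, the exact Poisson interval reached up to 0.378 RPM for CAST in the adult library. It reached up to 0.635 RPM for BL6 in the aged library. The level of 3 reads, at which these alleles are drawn, was 0.308 RPM in the adult and 0.517 RPM in the aged library. Reads of Acta1 are uncertain for a further reason, since the coding sequences of the muscle actins are nearly identical and a read can be assigned to a paralog or lost. The neighbouring predicted gene Gm29773 begins 120 bp beyond Acta1 and had 2 reads in each library. The 10 skeletal muscle markers summed to 4.72 RPM at 9 weeks and 3.62 RPM at 78 weeks, a sum over 10 genes that lay above Acta1 alone. In the aged library Acta1, with 0.861 RPM, lay above Actn3 with 0.517 RPM and below Tnnt3 with 1.38 RPM. Actn3 had 17 adult and 3 aged reads, Tnnt3 had 16 and 8, and Mybpc2 had 11 and 5. Mylpf, Tnni2 and Pvalb had at most 3 reads in each library, and Myh1, Myh2, Myh4 and Tnnc2 had none. Their part in the reads of Acta1 was not tested.

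The list of other actins, myosins and troponins, in fetal and adult forms, held 11 genes. Of the 10 with enough reads, 4 were called higher and 1 lower, with a median ratio of 1.25. This is 40% and 10%, beside 27.1% and 15.1% of all genes tested. Relative to loci of similar length 3 were higher and 2 lower. These are 30% and 20%, beside 15.6% and 23.4% of all genes. Actc1, the actin of the heart muscle sarcomere, had a level of 337 RPM at 9 weeks and 1385 RPM at 78 weeks, from 3286 and 8042 reads, and a ratio of 4.11 (3.95 to 4.28). It was 3.04 relative to loci of similar length. Acta2, smooth muscle actin, had a ratio of 2.38 (1.997 to 2.85) and Actb, the cytoplasmic actin, with 17 and 27 reads, of 2.67 (1.40 to 5.21). The summed smooth muscle markers, which include Acta2, had a ratio of 2.53, and their part in these actins was not tested. Of the heavy chains, Myh6, the fast form of the adult mouse heart, had a ratio of 1.15 (1.12 to 1.17), and Myh7, the slow form of the fetal ventricle, had 8013 and 7331 reads and a ratio of 1.54 (1.49 to 1.59). The ratio of Myh7 was 1.29 relative to loci of similar length. The gene called lower was Myl7, the atrial regulatory light chain, with 38 and 10 reads and a ratio of 0.442 (0.196 to 0.904). Under the 1.5-fold rule were also Myh7b with a ratio of 0.725, Myl4 with 0.884, Tnnt2 with 0.976 and Tnni3 with 1.35. Tnni1 had 4 and 8 reads, too few for a call.

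Xirp2 (gene 241431, chr2:67446000-67526620, plus strand) spans 80.621 kb and was the most deeply read gene of the set. It had 3161 adult reads, 1531 of BL6 and 1630 of CAST, and 2289 aged reads, 1167 of BL6 and 1122 of CAST. The level was 324 RPM (313 to 336) at 9 weeks and 394 RPM (378 to 411) at 78 weeks. These intervals are apart, and the ratio of 1.22 (1.15 to 1.28) was under the 1.5-fold rule. Of all genes tested, 43.9% had a higher ratio. It was 1.05 relative to the median gene, 1.08 relative to loci of similar length and 1.47 relative to the cardiomyocyte markers. The allelic ratio was 0.484 (0.467 to 0.502) at 9 weeks and 0.510 (0.489 to 0.531) at 78 weeks, and the change was -0.0255 (-0.0523 to 0.00140). The level ratio was 1.28 (1.18 to 1.38) for BL6 and 1.16 (1.07 to 1.25) for CAST.

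Part of these reads cannot be assigned to Xirp2 alone. The predicted antisense gene Gm13601 lies within the Xirp2 locus over 25.595 kb, and whether the counting used the strand is not given in the sources used here. Gm13601 was listed with 1243 adult and 712 aged reads, a ratio of 0.962 (0.876 to 1.06) and allelic ratios of 0.467 and 0.531. If all of these were also counted for Xirp2, 1918 adult and 1577 aged reads remain for Xirp2, with a ratio of 1.38 (1.29 to 1.48) and allelic ratios of 0.495 and 0.5003. With or without them the ratio was above 1 and under 1.5. The next locus, B3galt1, 39.097 kb away, had 4798 and 2406 reads and a ratio of 0.842 (0.801 to 0.884).

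Xirp1 (gene 22437, chr9:120013755-120023598, minus strand) spans 9.844 kb. The adult library held 93 of its reads, 44 of BL6 and 49 of CAST, and the aged library 133, 36 of BL6 and 97 of CAST. Its level was 9.54 RPM (7.70 to 11.7) at 9 weeks and 22.9 RPM (19.2 to 27.1) at 78 weeks. The aged level was higher, with a ratio of 2.40 (1.83 to 3.16), and 6.49% of all genes tested had a higher ratio. Its ratio was 1.78 relative to loci of similar length. Of all 1614 genes tested with loci from 5 to 10 kb, 38.5% were called higher. Within each library, Xirp1 made up 2.86% (2.31 to 3.49) of the 3254 adult reads and 5.49% (4.62 to 6.47) of the 2422 aged reads of both Xin repeat genes. Without the reads listed for Gm13601, these shares were 4.62% (3.75 to 5.64) of 2011 and 7.78% (6.55 to 9.15) of 1710. Skeletal muscle also makes Xin, and its markers given above summed to 4.72 RPM at 9 weeks and 3.62 RPM at 78 weeks. Their part in the level of Xirp1 was not tested.

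The alleles of Xirp1 differed in this. The BL6 level was 4.51 RPM (3.28 to 6.06) at 9 weeks and 6.20 RPM (4.34 to 8.58) at 78 weeks, a ratio of 1.37 (0.859 to 2.18) that includes 1. The CAST level was 5.03 RPM (3.72 to 6.65) and 16.7 RPM (13.5 to 20.4), a ratio of 3.32 (2.33 to 4.79). The intervals of the BL6 and CAST ratios do not overlap. Accordingly, the allelic ratio of Xirp1 was 0.473 (0.369 to 0.579) at 9 weeks and 0.271 (0.197 to 0.355) at 78 weeks, a change of 0.202 (0.0749 to 0.324). The aged allelic ratio lay below the middle 50% of autosomal genes of that library, which ran from 0.465 to 0.613 with a median of 0.537. Loci beside Xirp1 gave no allelic ratio, since Gm33800, 1.604 kb away, had 5 and 8 reads and Cx3cr1, 25.084 kb away, had 3 and 5.

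Of the 4 genes with 20 or more reads in each library, Xirp1 was the gene whose allelic ratio had intervals that did not overlap between the ages. This was so for 11.8% of 12390 autosomal genes, and for 5.95% of 3094 with 50 to 200 reads in each library, the range in which Xirp1 lies. In that range the median absolute change was 0.0692, and 6.17% of the genes had a change as large as that of Xirp1 in either direction. Nppa, Ankrd1 and Xirp2 had changes with intervals that included 0 and allelic ratios between 0.484 and 0.578. Since all 6 genes are autosomal, the choice of nuclei by their active X chromosome does not by itself fix which allele is read.

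**Figure D4:**
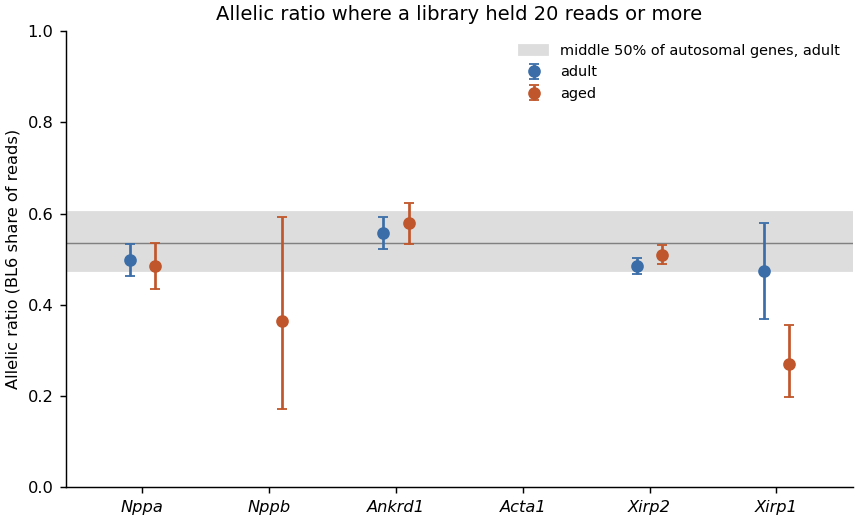
Allelic ratio (BL6 share of the reads) of the genes with 20 or more reads in a library, in the adult (blue) and aged (orange) heart, with exact 95% intervals; the grey band is the middle 50% of autosomal genes in the adult library. Xirp1 had 0.473 at 9 weeks and 0.271 at 78 weeks, and the intervals of the other genes with values at both ages overlap.

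The partners of Xin at the intercalated disc and Z disc were 16 genes, all with enough reads, of which 2 were called higher and 3 lower, with a median ratio of 1.03. These are 12.5% and 18.8%, beside 27.1% and 15.1% of all genes tested. Relative to the median gene, 1 was higher and 6 lower, the latter 37.5% beside 21.5% of all genes tested. Flnc, the gene of filamin C, which binds Xin, had the highest ratio among genes with enough reads in all 6 lists, 4.87 (3.92 to 6.09), from 112 adult and 325 aged reads. It was 4.10 relative to loci of similar length. Tln1, an adaptor between integrins and actin, had a ratio of 1.65 (1.38 to 1.98). Ctnna3, the alpha catenin of heart muscle, had a ratio of 0.592 (0.582 to 0.602), and Synpo2l, an actin-bundling protein, with 129 and 46 reads, of 0.599 (0.418 to 0.844). Nrap, which links actin to the disc, had 1980 and 961 reads and a ratio of 0.815 (0.754 to 0.881).

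Of 30 other stress and hypertrophy response genes, 22 had enough reads, and 14 were called higher and 1 lower in the aged library, with a median ratio of 1.71. Set beside the 27.1% of all genes called higher, this is 63.6%, and relative to loci of similar length 9 were higher and 1 lower, with 15.6% of all genes higher and 23.4% lower. The list was chosen with earlier results of these data known, and the part of that choice in this difference was not tested. Jun, a subunit of the AP-1 factor, had 21 adult and 37 aged reads and a ratio of 2.96 (1.69 to 5.32). Ccn1, a matrix protein listed as Cyr61, had a ratio of 2.52 (1.60 to 4.01) and Cdkn1a, the cell cycle inhibitor p21, of 2.45 (1.56 to 3.88). The gene called lower was Fbxo32, a ubiquitin ligase of muscle atrophy, with 3656 and 991 reads and a ratio of 0.455 (0.424 to 0.488). The summed markers of 5 other cell types were higher at 78 weeks as well, as given above, and their part in this list was not tested.

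Transcriptional regulators of these genes numbered 27, of which 26 had enough reads, 6 were called higher and 4 lower, and the median ratio was 0.934. This is 23.1% and 15.4%, beside 27.1% and 15.1% of all genes tested. Relative to the median gene, 4 regulators were higher and 9 lower, 15.4% and 34.6%, beside 18.4% and 21.5% of all genes tested. Srf, the factor that binds the CArG box, had 23 adult and 41 aged reads and a ratio of 2.99 (1.75 to 5.22). Of the factors of the MCAT motif, Tead4 had 179 and 319 reads and a ratio of 2.99 (2.48 to 3.61), and the more deeply read Tead1 had 5357 and 3322 reads and a ratio of 1.04 (0.997 to 1.09). Gata4, a cardiac factor of the GATA motif, had 2265 and 2168 reads and a ratio of 1.61 (1.51 to 1.71). Gata6, another factor of this motif, had 2006 and 985 reads and a ratio of 0.824 (0.763 to 0.890). Nkx2-5, a factor of the NKE motif, had 51 and 17 reads and a ratio of 0.560 (0.303 to 0.985). For the MEF2 site, Mef2a had a ratio of 0.764, Mef2c of 0.747 and Mef2d of 1.62. Myocd, the coactivator of serum response factor, had a ratio of 1.21 (1.17 to 1.25). Of the calcineurin-dependent factors, Nfatc1 had a ratio of 2.16 (1.90 to 2.46), Nfatc2, with 889 and 286 reads, of 0.540 (0.471 to 0.618) and Nfatc3, with 75 and 21 reads, of 0.470 (0.275 to 0.771). Over the 6 lists together, 31 of 96 genes were called higher and 14 lower, 32.3% and 14.6%, beside 27.1% and 15.1% of all genes tested. Relative to the median gene these were 20 higher and 25 lower, 20.8% and 26.0%, where 18.4% and 21.5% of all genes tested were past the rule. Relative to loci of similar length they were 19 and 18, 19.8% and 18.8%, beside 15.6% and 23.4% of all genes.

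**Figure D5:**
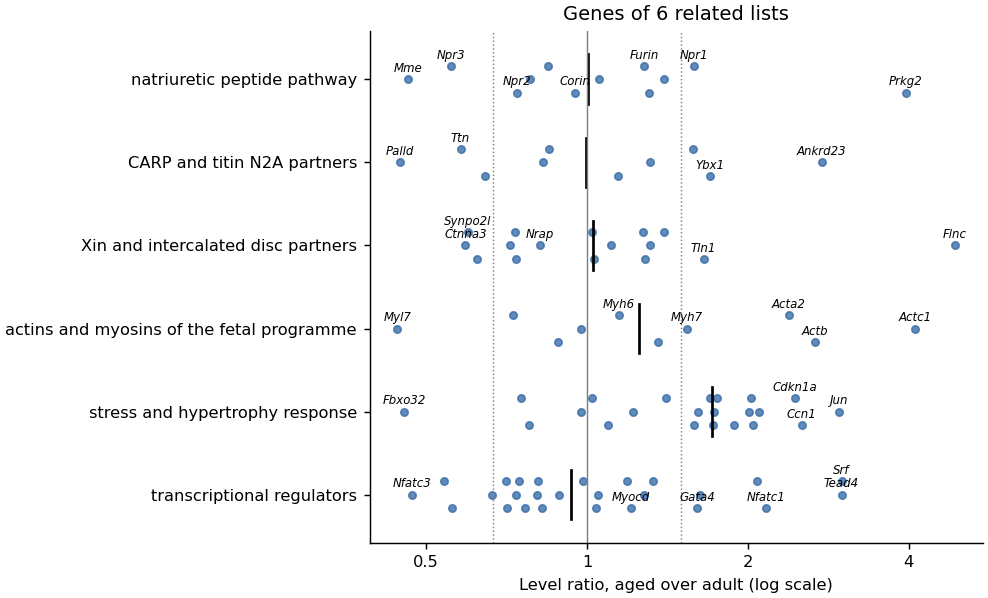
Aged to adult level ratio (log scale) of each gene with 40 or more reads in 6 related lists; each point is a gene, black bars are the medians of the lists, and dotted lines mark the 1.5-fold rule. The median of the stress and hypertrophy list (1.71) lay above the others, which ran from 0.934 to 1.25. The lists were chosen with earlier results of these data known.

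The genes most like each of the 6 were sought among 7068 autosomal genes with 100 or more reads in each library, by the distance between their 4 values (BL6 and CAST in either library) on the log2(RPM + 0.1) scale after each gene was centred on its mean. The nearest were Wdr91, Btf3l4 and Exoc6 for Nppa, with distances up to 0.0385. For Ankrd1 they were Mtfmt, Parg and Azin1, up to 0.0434, and for Xirp2 Fbxw2, Cnot4 and Ppp1r16b, up to 0.0400. Xirp1 had no gene as near, the closest being Gm34292 at 0.225 with a level ratio of 2.49 and allelic ratios of 0.427 and 0.288, then Rassf4 and Wipf1. For Nppb the nearest were Uap1 at 0.686, Flnc at 0.836 and Pde10a at 0.886, whose level ratios were 5.40, 4.87 and 12.6. For Acta1 they were Pmf1, Irak4 and Actr8 at 1.65 to 1.66, and the distances of Nppb and Acta1 rest on few reads.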

How the data were processed

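Per the submitters' processing notes and the study's methods, the authors aligned reads to GRCm38 (mm10) with Cell Ranger 7.1.0, split the alignments by nucleus with sinto, pooled nuclei with an active BL6 X chromosome and counted SNP-overlapping reads per RefSeq gene with Allelome.PRO2. The deposited counts of BL6, CAST and total reads are not normalized. The authors' allelic ratio is a fraction with 2 decimals, and their allelic score was not used. The study names CellBender for background RNA and DoubletFinder for doublets in its expression matrices. The counts used here were made from the Cell Ranger alignments, for which no removal of background RNA is described, and whether the pooled nuclei had passed the doublet filter is not given in the sources used here. The labels name Seurat 5.1.0, which made none of the values used here.

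From the counts, RPM with exact Poisson intervals, level ratios with intervals from the exact (Clopper-Pearson) share of aged reads, allelic ratios with Clopper-Pearson intervals and their changes with Newcombe intervals were computed (Python 3.11.15, pandas 2.3.3, NumPy 2.4.6, SciPy 1.17.1, statsmodels 0.14.6), all at 95%. The functions were tested on simulated data. Genes named were the 6 genes of the set, fixed context genes, up to 4 genes per list with the largest called ratios whose intervals excluded 1, the nearest and overlapping loci and the 3 most similar genes. Genes outside the set that were named for other reasons (cell type markers, Nfatc2, Tead1 and the stress genes in the closing section) were chosen by marker list or after their values were seen. The genes and lists were chosen with earlier results of these data known. Symbols were matched with older names of the RefSeq gene table. Strands, gene types and exon lengths are from GENCODE M21, and coordinates are counted from 1. Alternatives were other scales of the reads, thinning of the adult reads, other folds and read minimums, deposited or centred allelic ratios and reads of the same allele as the scale. The scale by loci of similar length and the removal of Gm13601 reads from Xirp2 were added after the data were seen.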

Additional observations from a re-analysis of the deposited data

How the results depend on the processing

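Of 89 alternative values of the results, 68 moved by less than the counting interval of the value or, for counts, by less than 1.5 times, 21 moved further and no called direction was reversed. Relative to the median gene, the level ratio was 0.709 for Nppa, 0.894 for Ankrd1 and 1.05 for Xirp2. Relative to the cardiomyocyte markers it was 0.990, 1.25 and 1.47, and without Ttn and Myh6 among these markers it was 1.35 for Xirp2. Relative to loci of similar length it was 0.532 for Nppa, 0.763 for Ankrd1, 1.08 for Xirp2 and 1.78 for Xirp1. Centred on the autosomal median, the adult allelic ratio was 0.461 for Nppa, 0.522 for Ankrd1 and 0.448 for Xirp2, and the aged one of Xirp2 was 0.472. Of the listed genes, 31 were higher and 14 lower, where 27.1% of all genes tested were higher and 15.1% lower. At 2-fold, 17 listed genes were higher and 5 lower. Relative to the median gene they were 20 and 25, where 18.4% of all genes tested were higher and 21.5% lower. Relative to loci of similar length, 19 listed genes were higher, beside 15.6% of all genes. Without the reads of Gm13601 the level ratio of Xirp2 was 1.38. No paired analysis was possible because each age is 1 library, and for the same reason no library could be left out. Depth limits Nppb and Acta1, with 3 and 2 adult reads.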

Other observations

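Among the 14 stress and hypertrophy genes called higher in the aged library, most of those not described above follow, and they were chosen for mention after their values were seen. Fhl2, a LIM domain protein that binds titin, was by far the most deeply read, with 24106 adult and 24423 aged reads and a level ratio of 1.70 (1.67 to 1.73). Fhl1, its relative, had 814 and 973 reads and a ratio of 2.01 (1.83 to 2.21). Pdlim5, a Z disc protein, had a ratio of 1.72 (1.68 to 1.76) and Enah, a regulator of actin assembly, of 1.73 (1.65 to 1.81), and relative to loci of similar length these were 1.67 and 1.68. The small heat shock protein genes Hspb1 and Hspb7 had ratios of 2.03 (1.62 to 2.54) and 2.04 (1.58 to 2.65), which were 1.32 and 1.33 relative to loci of similar length. Rcan1, a target and inhibitor of calcineurin, had a ratio of 1.75 (1.54 to 1.99). Ccn2, a matrix protein, had a ratio of 1.88 (1.4997 to 2.37), Cavin4, a caveolar protein of muscle, of 1.61 (1.36 to 1.90) and Cilp, a matrix protein, with 32 and 40 reads, of 2.10 (1.29 to 3.45). Relative to loci of similar length these were 1.22, 1.19 and 1.64. The immediate early genes Fos, Egr1 and Atf3 had 12, 10 and 11 adult and 9, 8 and 15 aged reads, too few for a call.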
